A study of Mus musculus with 4 samples.

Results

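The germline of the testis is maintained by spermatogonial stem cells, and 10 genes that mark these cells or their differentiating progeny were followed here in RNAseq of mouse testis. Of these, 7 are genes of stem and progenitor spermatogonia (*Zbtb16*, *Gfra1*, *Id4*, *Etv5*, *Ret*, *Nanos2* and *Nanos3*) and 3 are genes of differentiating spermatogonia (*Kit*, *Stra8* and *Sohlh1*). They were found by their names among the 25683 genes of the deposited table, and all 10 were present. The libraries came from whole testis, 2 of wild type controls and 2 of *Parp1* knockouts. The knockout animals carry the 129S-*Parp1*tm1Zqw/J allele, with a *neo* cassette in exon 2, crossed into C57Bl/J. Neither the age of the animals nor whether each library came from a separate animal is given in the sources used here, so that a p-value measures only the spread between these libraries. The knockout samples are titled after a *Parg* line, whereas their genotype label reads PARP1ko. Both knockout sets of columns carry the same heading, so they are called the deeper and the shallower knockout library, after their number of exon reads (21821073 and 18103863).

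Spermatogonial stem cells divide along the basement membrane of the seminiferous tubule and depend on glial cell line-derived neurotrophic factor (GDNF) from neighbouring somatic cells. GDNF binds the coreceptor GFRA1, which signals through the tyrosine kinase RET and induces transcription factors such as ETV5. Retinoic acid moves progenitors to differentiation, during which they take up the receptor KIT, and later induces STRA8, which precedes meiosis. Spermatogonia are a minority of the cells of an adult testis, and in RNA from the whole organ fewer cells of a type and less RNA per cell cannot be told apart.

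The libraries held 18103863 to 23503503 reads on exons. *Parp1*, the targeted gene, had 1781 and 2035 reads in control, against 489 and 424 in the deeper and the shallower knockout library (log2 fold change of -1.90, SE of 0.10, adjusted p of 0.0126 by edgeR's quasi-likelihood test). Without control 1 (adjusted p of 0.0899) or control 2 (0.0592) it did not pass the threshold, with log2 fold changes of -1.89 and -1.90. The knockout libraries stood further apart from each other than the control libraries did, with a median absolute log2 ratio of 0.265 against 0.109 over the 15834 genes tested. The summed markers of Leydig cells and of elongating spermatids moved with this split, whereas those of spermatocytes were alike in the knockout libraries (8174 and 8172 TPM). The summed level of 9 Leydig cell markers was 3344 and 4106 TPM (the length-scaled share of transcripts) in control, 2697 in the deeper knockout library and 8636 in the shallower one, and that of 11 elongating spermatid markers was 73876, 75594, 87583 and 49482 TPM in the same order. Most of the Leydig sum was *Insl3*, a Leydig cell hormone (2305, 2865, 1947 and 7301 TPM), and the other 8 markers summed to 1039, 1240, 750 and 1334 TPM. *Cyp17a1*, an enzyme of androgen synthesis, was at 288, 368, 190 and 272 TPM. None of the markers of somatic or later germ cells was at 0 in every library. The part of these cells in the results below was not tested, and results are given for each library. TPM is a share of the whole library, and so moves with such abundant transcripts, whereas the comparison of genotypes used reads scaled by TMM, a method that sets the bulk of genes equal.

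The promoter windows of 2 differentiating genes are shown because *Sohlh1* was the one member of its group with both knockout libraries below both control libraries, and because *Stra8* is induced by retinoic acid. RefSeq windows (GRCm38.p6) were matched for 8 of the 10 genes, all but *Zbtb16* and *Ret*. The 250 bases before the start of *Sohlh1* lie at chr2:25847249-25847498 on the minus strand and are printed in the direction of transcription, with the E-box CACGTG and the motif AGGTCA in capitals. CACGTG is a form of the element that basic helix-loop-helix proteins bind, and AGGTCA is the core hexamer of nuclear receptors, the family that includes the retinoic acid receptors.
Sohlh1: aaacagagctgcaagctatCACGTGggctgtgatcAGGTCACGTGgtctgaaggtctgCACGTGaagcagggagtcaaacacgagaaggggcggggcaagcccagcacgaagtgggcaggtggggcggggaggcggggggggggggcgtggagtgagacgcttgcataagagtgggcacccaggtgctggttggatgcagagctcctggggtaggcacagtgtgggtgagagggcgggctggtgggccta

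The window of *Sohlh1* held 3 copies of CACGTG, which start 231, 211 and 192 bases before the transcription start, and 1 copy of AGGTCA at 215, whose last bases are the first of the middle CACGTG. Both strands were searched, and 3 or more CACGTG were found in 20 of 32851 windows of 250 bases (0.06%), while 6.02% held at least 1. The window of *Stra8* held 2 copies of AGGTCA, which begin 194 and 38 bases before a start that lies inside an exon annotated for another transcript. The sites are given on the plus strand, at chr6:34920744-34920769 and chr6:34920900-34920925, with the motif in capitals. At least 2 copies of AGGTCA were found in 1.36% of windows and at least 1 in 14.02%. Such matches describe the sequence and do not show that a protein binds.
Stra8, 194 bases before the start: tggggtgaaaAGGTCAtcttgctcct
Stra8, 38 bases before the start: ctggggtaccAGGTCAgttttttacc

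Markers of the stem cell state did not share one level. In control testis *Id4*, an inhibitor of basic helix-loop-helix factors that marks stem cells, was the highest of the 10 genes at 26.2 ± 0.49 TPM (SD, n = 2), above 66.3% of the genes tested. It was followed by *Stra8* at 23.3 ± 0.22 TPM, *Etv5* at 20.3 ± 0.05 TPM, *Kit* at 12.1 ± 0.88 TPM and *Sohlh1* at 10.3 ± 0.70 TPM. The GDNF coreceptor *Gfra1* was lower, at 3.30 ± 0.35 TPM, as was *Zbtb16* at 2.75 ± 0.17 TPM, and *Ret* at 1.04 ± 0.08 TPM was above only 11.0% of the genes tested. *Nanos3* lay at 2.32 ± 0.66 TPM and *Nanos2*, a translational repressor of the most primitive spermatogonia, at 0.108 ± 0.153 TPM. Neighbours in this order did not overlap in control, except *Zbtb16* and *Nanos3*. In knockout testis *Stra8* overlapped both *Id4* and *Etv5*, *Gfra1*, *Zbtb16* and *Nanos3* overlapped one another, and *Nanos3* also overlapped *Ret* and *Nanos2*. The plot of levels by library shows this order, with a gap between the genes above 5 TPM and the rest of the stem and progenitor genes.

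**Figure D1:**
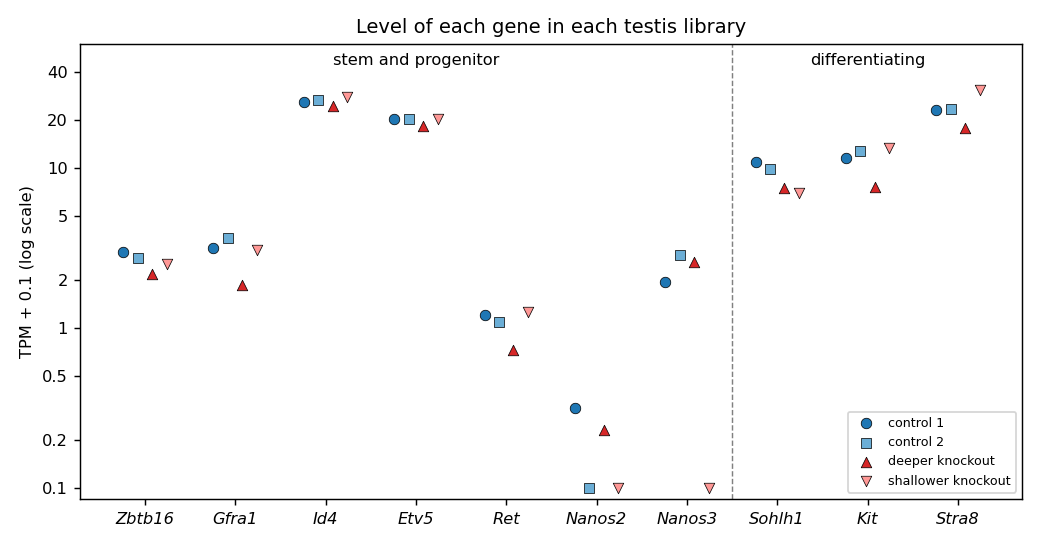
TPM plus 0.1 of each of the 10 genes on a log axis, with 1 point per library: circles and squares are the control libraries, upward triangles the deeper knockout library and downward triangles the shallower one. *Id4*, *Etv5*, *Kit*, *Stra8* and *Sohlh1* lie above 5 TPM in every library, whereas the points of *Nanos2* and *Nanos3* at 0.1 are libraries with 0 reads.

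Knockout and control testis were then compared for each gene. Of the 10 genes, 9 passed the filter on low counts, all but *Nanos2*, and 0 of the 9 passed the threshold (adjusted p of 0.05, edgeR's quasi-likelihood test, adjusted over all genes tested by the Benjamini-Hochberg method), where 15 genes or 0.0947% of those tested did. At an unadjusted p under 0.05, the count was again 0 of 9, against 7.79% of the genes tested, and 0 of the 9 genes were called by DESeq2, by limma voom or by a likelihood ratio test in edgeR. The adjusted p of the 9 genes ranged from 0.733 to 0.990. Both knockout libraries lay below both control libraries for 3 of the 9 genes (*Gfra1*, *Zbtb16* and *Sohlh1*, 33.3%), an order found in 19.2% of all genes tested, and 0 of 9 had both above, against 17.9%. The median log2 fold change was -0.26 over the 6 stem and progenitor genes tested and -0.23 over the 3 differentiating genes, beside 0.01 over all genes. The smallest change called over all genes was 2.77-fold.

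*Gfra1*, which encodes the receptor that binds GDNF on the stem cell surface, lies on chromosome 19 (58235604 to 58455909, minus strand, GRCm38). It had 149 and 201 reads in the control libraries, 96 in the deeper knockout library and 123 in the shallower one, or 3.06, 3.55, 1.76 and 2.97 TPM. All 4 values separated by genotype, although the higher knockout library came within 0.1 TPM of the lower control library. Its log2 fold change was -0.50 (SE of 0.23, 95% interval from -1.08 to 0.08, unadjusted p of 0.0798, edgeR), or 0.708 of control. Without the shallower knockout library the change was -0.73 and passed the threshold (adjusted p of 0.0150, the lowest of a range up to 1.0 over the alternatives), as did 17.0% of all genes tested, and without the deeper one it was -0.29 (adjusted p of 0.358). Its exons share 416 bases with those of *Gm16277* on the other strand, and since strand was not stated for the counting, reads of the overlapping genes cannot be told apart.

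*Ret*, the kinase through which GFRA1 signals, lies on chromosome 6 (118151745 to 118197718, minus strand) and was among the lowest of the genes. It had 66 and 69 reads in control, 42 in the deeper knockout library and 59 in the shallower one, or 1.10, 0.99, 0.62 and 1.15 TPM. The deeper knockout library was thus the lowest of the 4 and the other lay within the control range by scaled reads (log2 fold change of -0.25, 95% interval from -1.03 to 0.53, adjusted p of 0.935, edgeR). Without the former library the log2 fold change was 0.01.

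*Etv5*, a transcription factor of the ETS family that GDNF induces in stem cells and that Sertoli cells also express, lies on chromosome 16 (22381309 to 22439719, minus strand). Its reads were 741 and 864 in control, 747 in the deeper knockout library and 633 in the shallower one, or 20.30, 20.37, 18.27 and 20.37 TPM. The genotypes overlapped, and the log2 fold change of -0.05 had a 95% interval from -0.33 to 0.22, so that the knockout level lay between 0.797 and 1.167 of control by that interval.

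*Zbtb16* encodes PLZF, a zinc finger repressor needed for stem cell maintenance, and lies on chromosome 9 (48654297 to 48836222, minus strand). The control libraries held 135 and 144 reads, the deeper knockout library 110 and the shallower one 97, or 2.87, 2.64, 2.09 and 2.42 TPM. Both knockout values were below both control values, and the 95% interval of the difference held 0 (log2 fold change of -0.27, interval from -0.76 to 0.23, adjusted p of 0.868, edgeR). *Id4* lies on chromosome 13 (48261228 to 48266026, plus strand) and had 885 and 1056 reads in control, 934 in the deeper knockout library and 815 in the shallower one, or 25.84, 26.54, 24.35 and 27.95 TPM. The genotypes overlapped (log2 fold change of 0.02, 95% interval from -0.24 to 0.27), the sign turned without TMM scaling (-0.0067) and on the TPM scale (-0.0054), and *Id4* had the narrowest interval of the 9 genes. Its exons overlap *A330033J07Rik* over 82 bases and *Gm49291* over 171 on the other strand.

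The NANOS genes, RNA-binding proteins of undifferentiated germ cells, had few reads, and *Nanos2* was at the limit of detection. *Nanos2* on chromosome 7 (18987400 to 18988962, plus strand) had 3 and 0 reads in control and 2 and 0 in the deeper and the shallower knockout library. A count of 0 allows up to 3 reads, which correspond to 0.186 TPM in the second control library and 0.253 TPM in the shallower knockout library, so a difference was not detectable at this depth. Such limits cover counting error only, since reads copied by PCR are not independent molecules. Of its 1563 annotated exon bases, 766 also belong to *Gm45058* on the other strand. *Nanos3* on chromosome 8 (84173731 to 84185217, minus strand) had 12 and 21 reads in control, 18 in the deeper knockout library and 0 in the shallower one, or 1.85, 2.78, 2.47 and 0 TPM. A single library thus set it apart, with an upper limit of 0.543 TPM, and the log2 fold change of -0.70 had a 95% interval from -3.46 to 2.05. Without the deeper knockout library the change passed the threshold (adjusted p of 0.00403, the lowest of a range up to 1.0 over the alternatives), as did 23.6% of all genes tested, and without the shallower one it was 0.26 (adjusted p of 0.859).

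Among the differentiating genes, *Sohlh1*, a helix-loop-helix factor that drives progenitors to differentiate, had lower values in both knockout libraries and did not pass the threshold. It lies on chromosome 2 (25842995 to 25847248, minus strand) and had 124 and 131 reads in control, 95 in the deeper knockout library and 67 in the shallower one, or 10.81, 9.83, 7.39 and 6.86 TPM. Both knockout libraries were below both control libraries, with a log2 fold change of -0.49 (SE of 0.25, 95% interval from -1.11 to 0.12, unadjusted p of 0.0951, adjusted p of 0.759, edgeR), or 0.71 of control. Without the deeper knockout library the change was -0.72 and passed the threshold (adjusted p of 0.0437, the lowest of a range up to 1.0 over the alternatives), as did 23.6% of all genes tested, and without the shallower one it was -0.30 (adjusted p of 0.488).

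*Kit*, the receptor that differentiating spermatogonia take up and that Leydig cells and other cells also carry, lies on chromosome 5 (75574916 to 75656722, plus strand). Its reads were 538 and 693 in control, 396 in the deeper knockout library and 529 in the shallower one, or 11.51, 12.76, 7.56 and 13.29 TPM. The knockout libraries were on either side of the control libraries by TPM. By scaled reads the shallower one lay within the control range, at a log2 difference of -0.0035 from the control mean. The order by TPM was that of the summed Leydig markers with or without *Insl3*. It was also that of the summed Sertoli markers (1702, 1717, 1342 and 2156 TPM) and macrophage markers (70.1, 90.4, 55.8 and 104.6 TPM). The part of these cells in the level of *Kit* was not tested. The fitted log2 fold change was -0.23 (95% interval from -0.70 to 0.24, adjusted p of 0.879, edgeR), and without the shallower library it was -0.50 and passed the threshold (adjusted p of 0.00255, the lowest of a range up to 1.0 over the alternatives), as did 17.0% of all genes tested. Without the deeper library it was -0.0051 (adjusted p of 0.984). *Stra8*, needed for the start of meiosis, lies on chromosome 6 (34920163 to 34939344, plus strand) and had 371 and 437 reads in control, 318 in the deeper knockout library and 421 in the shallower one, or 23.13, 23.44, 17.70 and 30.83 TPM. It showed the same order by TPM as *Kit*. Its log2 fold change was 0.05 (95% interval from -0.42 to 0.51) and turned to -0.22 without the shallower knockout library.

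**Figure D2:**
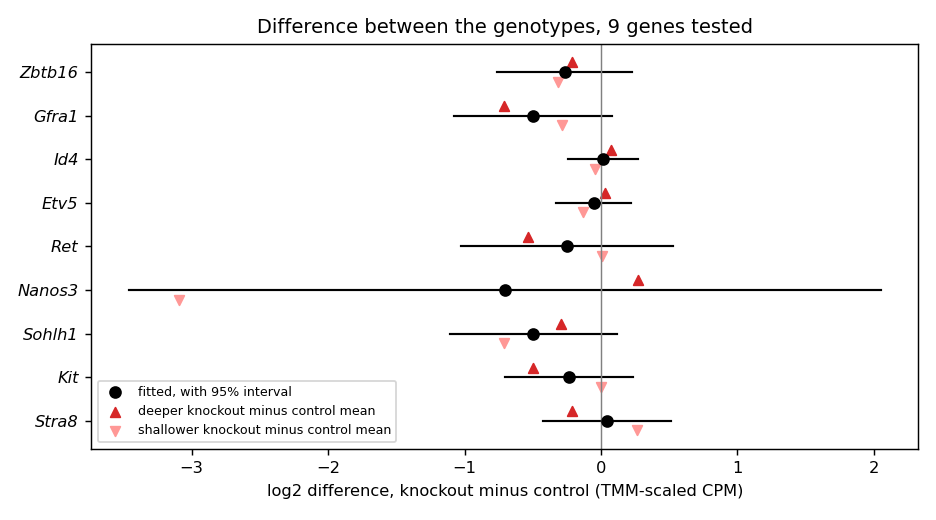
Fitted log2 fold change of knockout against control for the 9 genes tested (black points) with its 95% interval (lines), and the log2 difference of each knockout library from the control mean (triangles). Every interval crosses 0, and the knockout libraries lie on opposite sides of 0 for *Id4*, *Etv5*, *Ret*, *Nanos3* and *Stra8*.

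The knockout libraries differed from each other by gene. On the scale of TMM-scaled counts, the level in the shallower library was 1.48 times that in the deeper one for *Ret*, 1.41 times for *Kit*, 1.40 times for *Stra8* and 1.35 times for *Gfra1*, but 0.745 times for *Sohlh1*, 0.931 times for *Zbtb16*, 0.921 times for *Id4* and 0.895 times for *Etv5*. For *Zbtb16*, *Id4* and *Etv5* this order turned on the TPM scale, with ratios of 1.16, 1.15 and 1.11. The same ratio between the control libraries lay between 0.91 and 1.18 for these genes, apart from *Nanos3* at 1.52, and that of *Zbtb16* (0.929) was close to its ratio between the knockout libraries.

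Stem and differentiating genes were next set against each other within each library. The summed TPM of the 7 stem and progenitor genes was 55.2 and 56.9 in control, 49.7 in the deeper knockout library and 54.9 in the shallower one, and that of the 3 differentiating genes was 45.5, 46.0, 32.7 and 51.0. The ratio of the sums was 1.22 and 1.24 in control, and in knockout it was higher in one library (1.52) and lower in the other (1.08). The sum of the stem genes rests mainly on *Id4* and *Etv5*, and that of the differentiating genes on *Stra8* and *Kit*. With equal weight for each gene, the mean log2(TPM + 0.1) of stem genes minus that of differentiating genes was -2.15 and -2.32 in control and -1.96 and -3.003 in the deeper and the shallower knockout library, again on either side of the control values. The difference between the genotype means was -0.25, and it was 0.04 when only the 5 stem and 3 differentiating genes with at least 10 counts in every library were used. That setting left out *Nanos2* and *Nanos3*, which had 0 reads in the shallower knockout library. Its values were -1.33 and -1.35 in control, -1.26 in the deeper knockout library and -1.34 in the shallower one. The shallower library thus lay within the control range in that setting.

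Reads within each gene were described in the control libraries. All exon reads of the members mapped to 1 place. The share of exon reads that span a junction between exons was 94.1% and 90.2% for *Stra8* and 80.6% and 86.3% for *Sohlh1*, and 13.4% and 14.4% for *Gfra1*, 24.5% and 23.4% for *Id4* and 24.4% and 28.5% for *Zbtb16*, beside a median of 57.9% and 55.8% over all genes tested. The share of a gene's reads that fell on introns was 15.6% and 17.1% for *Sohlh1*, 12.4% and 9.9% for *Gfra1* and 33.3% and 38.2% for *Nanos3*, beside a median of 6.6% and 6.2%. *Etv5* and *Kit* had 1.1% to 3.4% of their reads on introns.

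Of 28 other genes of undifferentiated spermatogonia, 23 were tested and 0 passed the threshold. Both knockout libraries lay below both control libraries for 10 of the 23 (43.5%, against 19.2% of all genes tested). For 3 both lay above (13.0%, against 17.9%). The median log2 fold change was -0.20. The median was negative in each knockout library, at -0.16 in the deeper library and -0.28 in the shallower one. At an unadjusted p under 0.05, 3 were lower (13.0%, against 4.23% of all genes tested). Of the 23, 1 was higher, against 3.57% of all genes tested. Those lower were *Lin28a*, an RNA-binding protein of progenitors that blocks the maturation of let-7 microRNAs (4.30, 4.02, 2.54 and 2.41 TPM in the 2 control libraries and the deeper and the shallower knockout library), *Sall4*, a zinc finger partner of PLZF (2.32, 2.35, 1.23 and 1.54 TPM), and *Lhx1*, a homeobox factor that GDNF induces (1.87, 1.46, 0.71 and 0.86 TPM). Their log2 fold changes were -0.71, -0.74 and -1.06, with adjusted p of 0.496, 0.482 and 0.468 (edgeR). *Itga6*, a laminin receptor also made by somatic cells, was the higher one (log2 fold change of 0.47, adjusted p of 0.565). Without the deeper knockout library 10 of the 23 passed the threshold and without the other 1 did, where 23.6% and 17.0% of all genes tested passed. The highest in level were *Bmi1*, a Polycomb group gene, at 83.4, 81.5, 77.3 and 66.9 TPM, *Epcam* at 43.1, 40.5, 34.1 and 46.7 TPM, both with overlapping genotypes, and *Cd9*, with both knockout libraries above (log2 fold change of 0.41, adjusted p of 0.811). *Pax7* had 0 reads in all 4 libraries.

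The 15 other genes listed for differentiating spermatogonia were all tested, and 0 passed either the threshold or an unadjusted p of 0.05. Whether these genes are particular to that state was not tested. Both knockout libraries were below both control libraries for 4 (26.7%, against 19.2% of all genes tested) and above for 2 (13.3%, against 17.9%). The median log2 fold change was -0.02. The highest, *Dmrtb1*, a transcription factor of the passage from spermatogonia to meiosis, was at 674, 691, 713 and 773 TPM (log2 fold change of 0.15, adjusted p of 0.892). *Ly6k* and *Uchl1* overlapped between the genotypes, with log2 fold changes of -0.02 and 0.02, both of which turned sign under some settings.

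**Figure D3:**
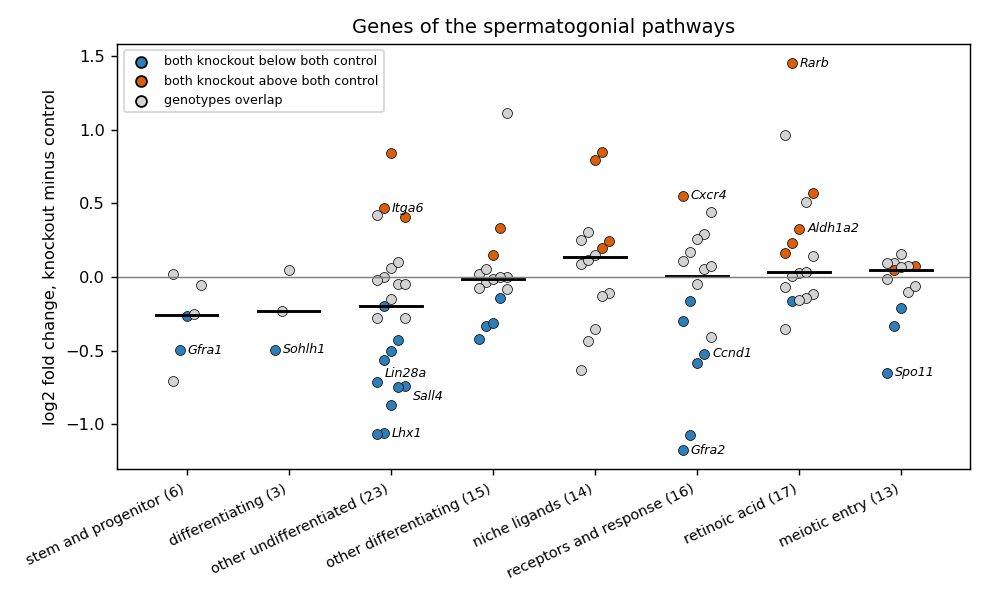
Log2 fold change of knockout against control for every gene tested in 8 lists, with 1 point per gene, a bar at the median of the list and the number of genes in parentheses. Blue points have both knockout libraries below both control libraries and orange points have both above, 10 and 3 of the 23 other undifferentiated genes. Over all genes tested, 19.2% had both below and 17.9% had both above.

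Of 16 ligands of the stem cell niche, 14 were tested and 0 passed the threshold or an unadjusted p of 0.05. Both knockout libraries were above both control libraries for 4 (28.6%, against 17.9% of all genes tested). They were below for 0, against 19.2% of all genes tested. *Gdnf* itself was at 0.73 and 0.79 TPM in control and 0.79 and 0.93 TPM in knockout, with a log2 fold change of 0.20 (SE of 0.34, adjusted p of 0.956), and was named after its values were seen. *Kitl*, the ligand of KIT, had a log2 fold change of 0.09 (adjusted p of 0.950), *Nrtn*, which encodes the GDNF relative neurturin, of -0.11 (0.979), and *Wnt6* of 0.30 (0.862), and all 3 changed sign without the shallower knockout library.

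Among 18 further receptors and response genes of GDNF and growth factor signalling, 16 were tested and 0 passed the threshold. *Gfra2*, the coreceptor of neurturin and a paralog of *Gfra1*, came nearest. It had 569 and 628 reads in control and 252 and 221 in knockout, or 18.1, 17.2, 7.14 and 8.24 TPM, so that both knockout levels were far under the lower control level. Its log2 fold change was -1.17 (SE of 0.13, unadjusted p of 0.000128, adjusted p of 0.0750, edgeR's quasi-likelihood test). DESeq2 (adjusted p of 1.67e-05), edgeR's likelihood ratio test (1.76e-08) and the quasi-likelihood test without a filter (0.0323) called it, and over all alternatives its adjusted p ran from 2.94e-11 to 0.631. In control testis the level of *Gfra2* was above that of *Gfra1*, which was at 3.06 and 3.55 TPM. At an unadjusted p under 0.05, 2 of the 16 were lower and 1 was higher, against 4.23% and 3.57% of all genes tested. Besides *Gfra2*, *Ccnd1*, a cyclin of the G1 phase, was lower (log2 fold change of -0.52, adjusted p of 0.540, edgeR). *Cxcr4*, the receptor of CXCL12, was higher (0.55, adjusted p of 0.631, edgeR). Both knockout libraries were below both control libraries for 6 of the 16 (37.5%, against 19.2% of all genes tested) and above for 1 (6.25%, against 17.9%). The median log2 fold change was 0.00. *Pik3ca*, a kinase of the phosphatidylinositol pathway, had a log2 fold change of 0.11.

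The retinoic acid pathway was represented by 19 genes, of which 17 were tested and 0 passed the threshold. Both knockout libraries were above both control libraries for 5 (29.4%, against 17.9% of all genes tested) and below for 1 (5.88%, against 19.2%). At an unadjusted p under 0.05, 2 of 17 were higher, against 3.57% of all genes tested, and 0 were lower, against 4.23%. *Aldh1a2*, a retinaldehyde dehydrogenase that makes retinoic acid in germ cells, was at 128 and 123 TPM in control and 134 and 181 TPM in knockout (log2 fold change of 0.33, adjusted p of 0.482, edgeR). *Rarb*, a retinoic acid receptor that retinoic acid itself induces, had 19 and 19 reads in control and 44 and 49 in knockout (log2 fold change of 1.45, SE of 0.34, adjusted p of 0.307, edgeR), and edgeR's likelihood ratio test called it (adjusted p of 0.0151, within a range from 0.00919 to 1.0 over the alternatives). *Aldh1a1*, the dehydrogenase of Sertoli and Leydig cells, and *Rdh11*, a retinol dehydrogenase, had log2 fold changes of 0.15 and 0.03, and the latter turned negative without TMM scaling (-0.0009). *Stra8*, which retinoic acid also induces, overlapped between the genotypes, as given above.

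Of the genes of meiotic entry, 13 of 14 were found in the table under the names used, all 13 were tested and 0 passed the threshold. *Spo11*, which makes the double-strand breaks of meiosis, was the 1 gene of 13 with an unadjusted p under 0.05, against 7.79% of all genes tested. It was at 61.7 and 52.8 TPM in control and 38.5 and 32.3 TPM in knockout (log2 fold change of -0.65, SE of 0.21, adjusted p of 0.495, edgeR). *Sycp3* and *Hormad1*, proteins of the chromosome axis, and *Stag3*, a cohesin subunit, had log2 fold changes of -0.10, 0.07 and 0.08, and the median of the list was 0.05. Both knockout libraries were below both control libraries for 3 (23.1%, against 19.2% of all genes tested) and above for 2 (15.4%, against 17.9%).

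Somatic and later germ cell markers were set beside these lists in each knockout library. The median log2 difference from the control mean was -0.35 for Leydig markers and -0.34 for macrophage markers in the deeper library, and 0.40 and 0.33 in the shallower one, while that of elongating spermatid markers went the other way, at 0.40 and -0.68. Sertoli markers, whose summed level was 1702 and 1717 TPM in control, were at 1342 and 2156 TPM, and spermatocyte markers at 7996, 7733, 8174 and 8172 TPM. The medians of spermatocyte (0.19 and -0.08) and round spermatid (0.38 and -0.0034) markers were positive in the deeper library and negative in the shallower one. That of round spermatid markers in the shallower library was next to 0. All 8 of the round spermatid markers had a positive fitted log2 fold change, with a median of 0.22. The medians of peritubular (-0.42 and -0.14) and endothelial (-0.15 and -0.41) markers were negative in both libraries. So were those of the stem and progenitor genes (-0.09 and -0.21), the differentiating genes (-0.29 and -0.0035), the other undifferentiated genes and the other differentiating genes (-0.02 and -0.08). Over all genes tested the median was -0.0068 in the deeper library and 0.0026 in the shallower one. The values of -0.0035 and -0.02 were close to these, and -0.0035 is the value of *Kit* alone. In the shallower library *Stra8* was at 0.27 and *Sohlh1* at -0.71. None of the somatic or later germ cell lists held a gene past the threshold.

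**Figure D4:**
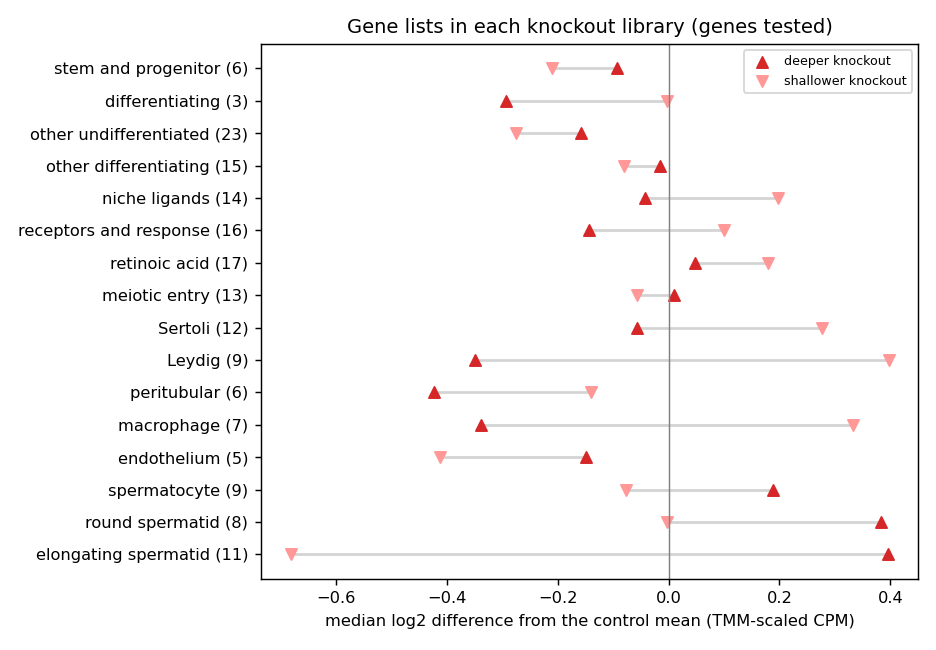
Median log2 difference from the control mean in the deeper knockout library (upward triangles) and the shallower one (downward triangles) for each gene list, over the number of genes tested given in parentheses. The triangles lie on opposite sides of 0 for Leydig, macrophage, Sertoli, spermatocyte, round spermatid and elongating spermatid markers. They also do so for the niche ligand, receptor and response, and meiotic entry lists. Both lie below 0 for all 4 lists of spermatogonial genes and for peritubular and endothelial markers, and both above 0 for the retinoic acid list. The medians over all genes tested were -0.0068 in the deeper library and 0.0026 in the shallower one. Close to these were the differentiating (-0.0035) and round spermatid (-0.0034) medians in the shallower library. The other differentiating median in the deeper library (-0.02) was also close.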

How the data were processed

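Poly(A) RNA of 2 control and 2 *Parp1* knockout testis libraries was sequenced as paired-end reads, and with CLC Genomics Workbench the authors trimmed the reads and mapped them to mouse genome mm10 (GRCm38). Whether the kit or the counting kept strand is not given in the sources used here. The authors deposited whole-number counts of reads on exons, junctions and introns of each gene, and TPM values that divide those counts by exon length and scale each library to the same sum. Total exon reads of all 4 libraries were used. Both knockout blocks of columns have the same heading, so their other columns were left out, and 54 of the 67 columns that hold values of single libraries, some of them of control, were not used. Knockout TPM was computed from counts and exon lengths, which returned the deposited TPM in control. The columns of the authors' own comparison (fold changes and p-values) were not used.

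Genes were filtered with filterByExpr (minimum of 10 counts), which left 15834, scaled by TMM and compared by the quasi-likelihood test of edgeR 4.0.16 in R 4.3.3 with genotype as the only term (common dispersion 0.0235, threshold of 0.05 after Benjamini-Hochberg adjustment). Alternatives used DESeq2 1.42.0 and limma 3.58.1, other scalings and filters, and each library left out in turn over the same genes, where a lone knockout or control library is taken to vary like the pair. The fit was tested on simulated counts. A chi-square test of the counts found more than sampling noise between the libraries of each genotype. Promoter windows came from RefSeq (GRCm38.p6), overlaps from GENCODE, and figures from Python 3.11.15 with matplotlib 3.10.9.

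The genes, lists and tests were chosen with earlier results of these data known. All 10 members were named, and in each further list the genes past the threshold, or otherwise up to 3 with the highest mean TPM. Of these, 1 gene is not reported here. Genes named for an unadjusted p under 0.05, *Gdnf*, *Pax7*, *Insl3* and *Cyp17a1* were picked after their values were seen.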

Additional observations from a re-analysis of the deposited data

How the results depend on the processing

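Of 9 alternatives that kept all libraries, every one called 0 of the members it tested. These were 9 members, but 10 without a filter and 8 with at least 10 counts in every library. The number called over all genes, 15, became 193 with DESeq2, 41 without TMM, 374 with edgeR's likelihood ratio test, 52 without a filter and 87 with limma on TPM. Leaving out 1 library gave 5 to 3735 genes (3735 without the deeper knockout library, 2693 without the other) and 0 to 2 members. These were *Nanos3* and *Sohlh1* without the former, and *Gfra1* and *Kit* without the latter, with 1 knockout library taken to vary like the controls. The *Nanos3* value of -6.98 is set by the prior count. The median of the stem and progenitor genes then ran from -0.32 to -0.10, that of the differentiating genes from -0.31 to -0.01, and the stem against differentiating difference from -0.77 to 0.27 (-0.50 and 0.00 with a pseudocount of 0.01 and 1 TPM, -0.14 per kilobase). The lists of other genes called 0 to 10 (undifferentiated), 0 to 3 (differentiating), 0 to 2 (niche), 0 to 7 (receptors and response), 0 to 6 (retinoic acid) and 0 to 3 (meiotic entry). The upper ends are out of 23, 15, 14, 16, 17 and 13 genes tested, in that order. All but that of meiotic entry came without the deeper knockout library, where 23.6% of all genes tested passed. That of meiotic entry came without the shallower one, where 17.0% of all genes tested passed. Whether any list exceeded those shares was not tested. DESeq2, the likelihood ratio test and no filter called 1 receptor gene (*Gfra2*), and the likelihood ratio test 1 retinoic acid gene (*Rarb*).

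Signs turned for *Id4* without TMM (-0.0067) and with limma on TPM (-0.0054), *Uchl1* with limma on TPM (-0.0022) and *Rdh11* without TMM (-0.0009). With each library left out in turn, log2 fold changes crossed 0 for *Id4* (-0.0412 to 0.0748), *Etv5* (-0.1325 to 0.0259), *Ret* (-0.5574 to 0.0122), *Nanos3* (-6.98 to 0.26), *Stra8* (-0.22 to 0.27), *Bmi1* (-0.436 to 0.0886), *Epcam* (-0.115 to 0.0243), *Ly6k* (-0.1752 to 0.13), *Uchl1* (-0.0028 to 0.0437), *Wnt6* (-0.0505 to 0.5881), *Nrtn* (-0.5805 to 0.24), *Kitl* (-0.0418 to 0.2054), *Pik3ca* (-0.0131 to 0.2184), *Aldh1a1* (-0.0617 to 0.3284), *Rdh11* (-0.0718 to 0.1183) and *Hormad1* (-0.0704 to 0.2081). The cause was not tested. No paired analysis was possible because both knockout sets of columns carry the same number. Unique exon reads were not run. *Nanos2* was limited by depth, and *Nanos3* rested on few reads.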
